A study of Mus musculus with 12 samples.

Results

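Bone marrow cells of mice that carry both an Eµ-Myc and an Eµ-TTP-1 transgene were compared with those of mice that carry Eµ-TTP-1 alone, which asks what Myc does to the B-lineage transcriptome when TTP is also present as a transgene. The comparison rested on 6 of the 12 arrays of the series, 3 titled Eµ-Myc;Eµ-TTP-1 (here double transgenic) and 3 titled Eµ-TTP-1 (here TTP). Both groups carry the TTP transgene and differ by the Myc transgene, which the labels describe as precancerous in the double transgenic mice. All mice were littermates of 4 to 6 weeks on a background that was 94% C57BL/6. Marrow cells were taken with CD45R (B220) beads, which bind a CD45 form that B-lineage cells carry and that plasmacytoid dendritic cells and some natural killer cells carry too. Their total RNA was read on Affymetrix MOE430 2.0 arrays, 1 a sample. The labels call the samples biological replicates and do not say how many mice gave each one, so the tests measure the spread between these samples. The other 6 arrays, 3 wild type and 3 Eµ-Myc, were used to estimate the spread and for a comparison of the Myc difference without the TTP transgene. Of 18194 genes with a probe set that named them alone, 10287 were tested, which were those with a log2 intensity above 4 on at least 3 of the 12 arrays.

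Myc is a transcription factor that binds DNA with its partner Max, preferring the E-box CACGTG, and is known for raising genes of ribosome production, protein synthesis, nucleotide synthesis and mitochondria. The Eµ element, an immunoglobulin heavy chain enhancer, directs both transgenes to B-lineage cells, and Eµ-Myc mice develop B-cell lymphoma after a phase in which precursor B cells accumulate. TTP (tristetraprolin) is the protein of Zfp36, and attaches to AU-rich stretches near the end of short-lived mRNAs and recruits the deadenylation and decay machinery. Developing B cells pass in the marrow from pro-B and pre-B stages, in which the antigen receptor genes are rearranged, to immature cells that leave for the spleen, while mature B cells return to the marrow from the blood.

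The transgenes themselves were read first, because they bear on the labels. The Myc probe set read 10.05, 10.39 and 13.47 on the TTP arrays and 11.82, 12.73 and 13.37 on the double transgenic arrays, on the log2 intensity scale used throughout. The array labelled TTP 3 was thus as high as the double transgenic arrays, the groups overlapped, and the Myc difference of 1.33 ± 0.95 (here and below a log2 difference ± its standard error in the fit) had an adjusted p of 0.32 in the limma fit. Without the array labelled TTP 3 it was 2.42 ± 0.80 with an adjusted p of 0.0373 (limma). Zfp36 read 9.88, 9.89 and 9.78 on the TTP arrays and 7.47, 8.62 and 9.18 on the double transgenic arrays, against 10.70, 9.80 and 9.84 on the wild-type arrays, so the TTP arrays did not stand above wild type. Whether this probe set reads the transcript of the TTP transgene is not given in the sources used here.

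The array labelled TTP 3 also stood apart across genes. Its median absolute log2 difference over the tested genes was 0.44 from TTP 1 and 0.47 from TTP 2, and 0.48, 0.31 and 0.27 from double transgenic 1, 2 and 3, while TTP 1 and TTP 2 differed by 0.19. The share of genes that differed by over 1 was 18.8% and 22.4% from TTP 1 and 2, against 8.12%, 3.26% and 3.95% from the double transgenic arrays. On the first principal component, which held 73.5% of the variance, the TTP arrays lay at -58.2, -72.6 and 18.1 and the double transgenic arrays at 11.6, 31.4 and 47.0. Both TTP 3 and double transgenic 3 held signal for Xist, the RNA of the inactive X chromosome (11.75 and 8.51), together with the Y-linked Eif2s3y (10.41 and 10.70), and the other 4 arrays of the 2 groups held Xist of 13.39 or higher with Eif2s3y of 3.16 or lower. The B-lineage genes Cd79a, Cd79b and Ms4a1 read 12.92 or higher on all 6 arrays. So did Ptprc, which encodes CD45, of which B220 is a form. The B-lineage gene Pax5 read 9.25, 9.80 and 8.77 on the TTP arrays and 9.39, 8.77 and 8.73 on the double transgenic arrays. What set TTP 3 apart was not tested, and each gene list below is given with and without it. Of 135 genes described below, 132 passed at an adjusted p of 0.05 without TTP 3 (limma), and Odc1, Mnt and Mmp9 did not. None of the 135 changed sign without it, and the differences of Myc, Ptpn6 and Sat1 moved by over 1.5 times. Nearly all were chosen for small p or large differences on these same arrays, so their passing is no separate support. Over all tested genes 18.5% were called higher and 19.9% lower without TTP 3.

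With all arrays, none of the 10287 genes passed the test at an adjusted p of 0.05 (limma with Benjamini-Hochberg adjustment, 0% called), and the smallest adjusted p was 0.0607. An unmoderated linear model on the same arrays called 5. At an unadjusted p of 0.05 in limma, 2690 genes were higher and 1017 lower in the double transgenic arrays. At the looser adjusted p of 0.10, 2167 genes were higher (21.1% of those tested) and 546 lower (5.31%). This threshold was fixed after earlier results of these data had shown no gene under 0.05 and a smallest adjusted p between 0.05 and 0.10. All 3 double transgenic values lay above all 3 TTP values in 3147 genes (30.6%) and below them in 551 (5.36%). The balance of higher and lower genes rested on how the arrays were scaled: 79.9% of the genes at an adjusted p under 0.10 were higher as deposited, against 60.6% after quantile normalization (1898 higher, 1234 lower) and 54.3% after setting the arrays to a common median (1329 higher, 1117 lower).

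Without the array labelled TTP 3, 1905 genes were called higher (18.5%) and 2046 lower (19.9%) at an adjusted p of 0.05. These held 1731 of the 2167 genes that were higher at an adjusted p under 0.10 with all arrays (79.9% of those, 90.9% of the 1905), and 530 of the 546 lower genes (97.1% of those, 25.9% of the 2046). Of the 2046 genes called lower, TTP 3 lay nearer to the double transgenic mean than to the mean of TTP 1 and 2 in 1991. Of the 1905 called higher it did so in 798, and of all 10287 tested genes in 6215. Leaving out TTP 1 or TTP 2 in place of TTP 3 called 0 genes. TTP 3 was singled out after its values on these same arrays had been seen, and leaving it out narrows the spread. The adjusted p-values without it can therefore not be taken at face value. In the results on gene lists and genes of this comparison below, a gene is said to be called only where it passed the test without TTP 3. A gene passing the looser threshold did so with all arrays.

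The genes that make ribosomes were the largest group that stood higher in the double transgenic arrays. Of 63 tested ribosome biogenesis factors, 54 were higher at an adjusted p under 0.10 and none was lower, with a median log2 difference of 1.01 against 0.09 over all tested genes. Without TTP 3 the median was 1.28 and 57 were called higher. All 63 differences were above 0, from 0.20 to 1.80. Nop14, a component of the small-subunit processome that trims ribosomal RNA, read 9.03, 8.77 and 9.42 on the TTP arrays and 10.64, 10.27 and 10.28 on the double transgenic arrays. Its difference of 1.32 ± 0.29, 2.5-fold, had an adjusted p of 0.0607 (limma), and 0.0136 without TTP 3. Utp14a, another processome component, read 9.92, 10.05 and 10.61 on the TTP arrays and 11.33, 11.18 and 11.27 on the double transgenic arrays. In both genes every double transgenic array lay above every TTP array, and TTP 3 was the TTP array nearest to them. Bms1, a GTPase of small-subunit assembly, differed by 0.62 ± 0.12, and Ddx56, an RNA helicase of the nucleolus, by 1.27 ± 0.33, both with adjusted p of 0.0607 (limma) and without overlap. Nop9, an RNA-binding factor of the same pathway, differed by 0.87 ± 0.20 without overlap.

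The polymerases that transcribe ribosomal and transfer RNA genes and the enzymes that finish transfer RNAs followed the same direction. Of 30 tested RNA polymerase I and III genes, 18 were higher at an adjusted p under 0.10 and none lower (median 0.53, and 0.64 with 17 called higher without TTP 3). Polr3d, a subunit of RNA polymerase III, read 6.98, 7.08 and 7.65 (TTP) and 8.58, 8.50 and 8.50 (double transgenic). Polr1a, the largest subunit of RNA polymerase I, read 7.96, 8.02 and 8.92 on the TTP arrays and 9.77, 9.62 and 9.41 on the double transgenic arrays. Their differences were 1.29 ± 0.28 and 1.30 ± 0.37, without overlap. Among 48 tRNA-modifying enzymes 25 were higher and none lower (median 0.67, or 0.66 with genes below the intensity floor set to it, and 0.77 with 25 called higher without TTP 3). Adat3, the partner of Adat2 in the deaminase that makes inosine in the tRNA anticodon, had one of the smallest p-values of the comparison. Adat3 read 5.03, 5.02 and 5.72 in the TTP group against 7.40, 6.69 and 7.03 in the double transgenic group, a difference of 1.78 ± 0.28 or 3.43-fold. Adat2 itself read 7.84, 7.67 and 7.86 (TTP) and 9.14, 8.59 and 8.51 (double transgenic). Trmt10a, a tRNA guanosine methyltransferase, read 8.20, 8.06 and 8.70 on the TTP arrays and 9.43, 9.26 and 9.22 on the double transgenic arrays. Neither overlapped between the groups.

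The machinery that charges tRNAs and builds proteins was higher as well. Of 38 aminoacyl-tRNA synthetases 29 were higher at an adjusted p under 0.10 and none lower (median 0.66, and 0.79 with 28 called higher without TTP 3), among them Sars2, the mitochondrial seryl-tRNA synthetase (1.15 ± 0.25), and Wars, the cytosolic tryptophanyl-tRNA synthetase (0.74 ± 0.18). Of 35 translation factors 19 were higher and none lower (median 0.48, and 0.57 with 19 called higher without TTP 3). Eif2b5, the catalytic subunit of the exchange factor eIF2B, read 10.62, 10.69 and 11.18 in the TTP group against 11.84, 11.85 and 11.64 in the double transgenic group. Eef2, the elongation factor that moves the ribosome along the mRNA, read 13.91, 13.98 and 14.17 (TTP) and 14.39, 14.30 and 14.45 (double transgenic), a narrow but non-overlapping difference of 0.36 ± 0.09. Eif6, which keeps the ribosomal subunits apart, differed by 0.71 ± 0.18. The cytosolic ribosomal proteins differed least, with 8 of 30 higher (26.7%, against 21.1% of all genes), none lower and a median of 0.19. Without TTP 3, 7 were called higher and the median was 0.20. Among them Rps6 differed by 0.70 ± 0.17 (adjusted p 0.0607, limma), with TTP values of 11.17, 11.18 and 11.69 and double transgenic values of 12.10, 11.94 and 12.08.

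**Figure D1:**
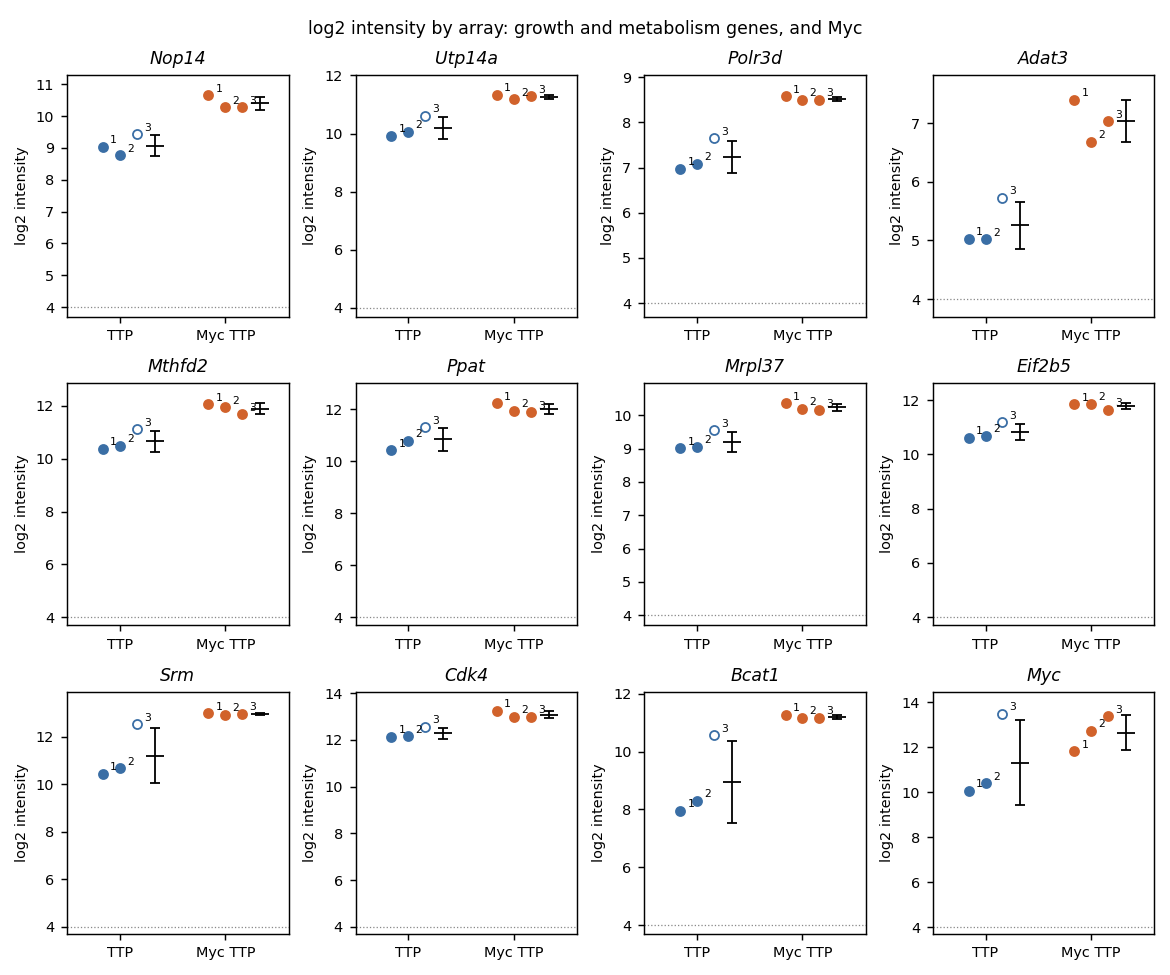
log2 intensity (vertical axis) of 12 genes on the 3 TTP arrays (blue, TTP 3 open) and the 3 Myc TTP arrays (orange), with array numbers beside the points, group mean and SD (n = 3) as black bars, and the floor of log2 4 dotted. Apart from Myc, no gene overlapped between the groups, and TTP 3 was the TTP array nearest to the Myc TTP arrays in each; in Myc it read 13.47, above all 3 Myc TTP arrays.

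The E-box CACGTG was searched for in the promoters of these genes, from 250 bases before to 50 after the start in the RefSeq table of GRCm38.p6, which held a promoter for 8440 of the tested genes. The motif reads the same on both strands. It stood in any promoter window of 12.3% of these 8440 genes, and in 7.15% of all 32851 promoter windows of 300 bases. A gene can have several windows, so these shares are in unlike units and are not compared. The share was 14.3% of 1809 genes higher at an adjusted p under 0.10, 8.74% of 435 lower ones, 21.4% of 56 ribosome biogenesis factors and 28% of 25 translation factors, but 5% of 20 CCT and HSP90 genes, 7.41% of 27 proteasome genes, 6.52% of 46 oxidative phosphorylation genes and none of 15 serine, glycine and folate genes. Lists that were not higher as a group held it as often, among them immediate early genes (26.3% of 19), cyclins, CDKs and CDK inhibitors (26.7% of 15) and reported TTP targets (23.5% of 17). Among the named genes Cdk4, a kinase of the G1 phase, held 4 copies. The windows below were chosen to show the motif (in capitals) in genes higher in the double transgenic arrays and, last, in the lower gene Prxl2a. They run 5′ to 3′ on the gene's strand, with the first motif base counted from the transcription start.
Cdk4 (-172): gcagccagtCACGTGccacacagc
Cdk4 (-118): tcaaggggtCACGTGggatagcaa
Cdk4 (-98): gcaacaggtCACGTGgccgtcagg
Cdk4 (-11): ggtgaagatCACGTGtccagaacg
Trmt10a (-15): ctcgccactCACGTGccgtcttcc
Eef2 (-43): cggcgccgtCACGTGacgcaccca
Mrpl37 (-162): aagtttcttCACGTGtggcacttc
Ndufv1 (-169): agagggcgaCACGTGagcctggtt
Aen (-79): caagggttcCACGTGaaacctggg
Prxl2a (-57): cgtgtctgtCACGTGaaagtggcg

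The Cdk4 windows lie on the + strand at chr10:127063354-127063377, chr10:127063408-127063431, chr10:127063428-127063451 and chr10:127063515-127063538. Trmt10a lies at chr3:138143775-138143798 (+ strand), Eef2 at chr10:81176579-81176602 (+ strand), Mrpl37 at chr4:107067014-107067037 (- strand), Ndufv1 at chr19:4012910-4012933 (- strand), Aen at chr7:78895970-78895993 (+ strand) and Prxl2a at chr14:41013847-41013870 (- strand, also -28 from a second start). Cdk4 read 12.14, 12.16 and 12.55 on the TTP arrays and 13.24, 12.99 and 12.98 on the double transgenic arrays, a difference of 0.79 ± 0.21 (adjusted p 0.0607, limma). A motif match is a description of these letters and no measure of Myc binding.

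Mitochondrial genes were higher as a group, most of all those of the mitochondrial ribosome and of protein import. Of 55 mitochondrial ribosomal proteins 48 were higher at an adjusted p under 0.10 and none lower, with a median of 0.71 and every difference above 0. Mrpl37, a large-subunit protein, read 9.02, 9.05 and 9.55 in the TTP group against 10.36, 10.20 and 10.16 in the double transgenic group. Mrpl49 read 10.01, 9.96 and 10.19 (TTP) and 10.71, 10.59 and 10.61 (double transgenic), and its groups were also apart. Of 32 import and chaperone genes 27 were higher and none lower (median 0.74). Among these Mtx1, of the outer-membrane import apparatus, differed by 0.74 ± 0.17, Tomm34, a cytosolic co-chaperone of import, by 0.74 ± 0.17, and Timm13, an intermembrane-space chaperone, by 0.74 ± 0.19. The 57 oxidative phosphorylation genes had a lower median, 0.33, with 31 higher and none lower. Ndufv1, the NADH-binding subunit of complex I, read 11.75, 11.83 and 11.97 on the TTP arrays and 12.57, 12.46 and 12.43 on the double transgenic arrays. Uqcrc1 of complex III read 12.94, 13.01 and 13.10 in the TTP group against 13.54, 13.36 and 13.64 in the double transgenic group. Without TTP 3 the 3 medians were 0.81, 0.91 and 0.36, with 48, 27 and 28 called higher.

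Serine, glycine and folate metabolism had the highest median of all lists, 1.06, with 15 of 18 tested genes higher at an adjusted p under 0.10 and none lower. Without TTP 3 it was 1.33, with 16 called higher and 1 lower. Mthfd2, the mitochondrial folate dehydrogenase that supplies formate for purines, read 10.37, 10.49 and 11.12 (TTP) and 12.06, 11.94 and 11.68 (double transgenic). Shmt1, which moves a carbon from serine to folate, read 9.33, 9.99 and 10.27 on the TTP arrays and 11.30, 10.97 and 11.10 on the double transgenic arrays. Slc25a32, the mitochondrial folate carrier, read 8.42, 8.92 and 9.39 in the TTP group against 10.22, 9.91 and 9.97 in the double transgenic group. The differences were 1.23 ± 0.31, 1.26 ± 0.34 and 1.13 ± 0.30, and none of the 3 genes overlapped. Purine and pyrimidine synthesis followed, with 19 of 32 higher, none lower and a median of 0.70, and 20 called higher, 1 lower and 0.81 without TTP 3. Ppat, which takes the first committed step to purines, read 10.43, 10.80 and 11.31 (TTP) and 12.23, 11.94 and 11.88 (double transgenic). Dhodh, the mitochondrial enzyme of pyrimidine synthesis, read 8.36, 8.43 and 9.06 on the TTP arrays and 9.86, 9.68 and 9.75 on the double transgenic arrays.

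Other branches of metabolism were mixed. Polyamine genes had a median of 0.03 that turned to -0.04 after quantile normalization, to -0.03 at a common median and to -0.14 without TTP 3. In that last fit 2 of 9 were called higher (22.2%, against 18.5% of all genes) and 2 lower (22.2%, against 19.9%). Within that list Srm, spermidine synthase, read 10.43, 10.67 and 12.52 in the TTP group against 12.99, 12.93 and 12.98 in the double transgenic group, and its difference of 1.76 ± 0.64 became 2.42 ± 0.58 without TTP 3. Odc1, the rate-limiting ornithine decarboxylase, differed by 0.56 ± 0.22 (adjusted p 0.105, limma), and Sat1, which acetylates polyamines for their removal, by -0.86 ± 0.37 (adjusted p 0.123). Neither passed the looser threshold, and Sat1 overlapped between the groups. Without TTP 3, Sat1 was called lower (-1.32 ± 0.27, adjusted p 0.0136, limma).

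Among 17 amino acid transporters 4 were higher (23.5%, against 21.1% of all genes) and 1 lower (5.88%, against 5.31%), with a median of -0.05. Without TTP 3, 4 were called higher (23.5%, against 18.5%) and 5 lower (29.4%, against 19.9%), with a median of -0.30. Slc7a5, which imports large neutral amino acids, read 9.20, 9.67 and 10.61 (TTP) and 11.21, 10.99 and 11.15 (double transgenic). Slc7a1, an arginine transporter, differed by 1.14 ± 0.35 and Slc1a5, a glutamine transporter, by 0.33 ± 0.10, while Slc38a9, a lysosomal arginine sensor, differed by -1.28 ± 0.46 with overlap. Glycolysis had 5 of 18 genes higher (27.8%, against 21.1% of all genes) and 1 lower (5.56%, against 5.31%), with a median of 0.21. In the fit without TTP 3, 6 were called higher (33.3%, against 18.5%) and 3 lower (16.7%, against 19.9%), with a median of 0.14. Tpi1, triose phosphate isomerase, differed by 0.99 ± 0.30 and Hk2, hexokinase 2, by 0.91 ± 0.30. Slc2a3, a glucose transporter, was the lower gene, with TTP values of 11.61, 12.05 and 10.97 and double transgenic values of 10.32, 10.76 and 10.82. In cholesterol synthesis and uptake 3 of 22 genes were higher (13.6%, against 21.1% of all genes) and none lower, with a median of 0.18. In the fit without TTP 3, 4 were called higher (18.2%, against 18.5%) and 1 lower (4.55%, against 19.9%), with a median of 0.10. The higher genes included Sqle, squalene epoxidase (0.75 ± 0.25), and Scap, the escort of SREBP (0.45 ± 0.14).

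Protein folding, degradation and nuclear transport were higher by about the same amounts as translation. Of 25 genes of the CCT chaperonin and HSP90 system 16 were higher at an adjusted p under 0.10 (median 0.57), of 33 proteasome genes 24 (0.42), and of 43 nucleoporin and transport genes 28 (0.54), with none lower in any of the 3 lists. Without TTP 3, 17, 25 and 27 were called higher and none lower, with medians of 0.75, 0.46 and 0.62. Cct7, a subunit of the chaperonin that folds actin and tubulin, read 12.89, 13.12 and 13.59 on the TTP arrays and 14.13, 13.92 and 13.93 on the double transgenic arrays. Psmd13, of the proteasome lid, read 10.92, 10.71 and 11.03 in the TTP group against 11.63, 11.49 and 11.44 in the double transgenic group. Nup155, of the inner pore ring, read 9.25, 9.31 and 9.98 (TTP) and 10.65, 10.49 and 10.48 (double transgenic). No double transgenic value in these genes fell to the level of a TTP array.

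Genes of DNA replication and mitosis were higher as well. Of 46 replication genes 29 were higher at an adjusted p under 0.10 and none lower (median 0.47). Without TTP 3 the median was 0.50 and 21 were called. Lig1, the ligase that joins Okazaki fragments, read 11.77, 11.62 and 11.76 on the TTP arrays and 12.26, 12.29 and 12.32 on the double transgenic arrays. In this gene TTP 3 lay with the other TTP arrays, and the difference was 0.58 ± 0.11 with all arrays and 0.59 ± 0.12 without it. Pola1, the primase-associated polymerase, differed by 0.57 ± 0.13 and Timeless, of the fork protection complex, by 0.55 ± 0.12. Of 53 mitosis genes 24 were higher (45.3%, against 21.1% of all genes) and none lower, with a median of 0.32. In the fit without TTP 3, 14 were called higher (26.4%, against 18.5%) and 1 lower (1.89%, against 19.9%), with a median of 0.32. Cdk1 read 12.14, 11.81 and 12.20 in the TTP group against 12.63, 12.62 and 12.59 in the double transgenic group. Aurkb, the mitotic kinase Aurora B, read 11.65, 11.19 and 11.81 (TTP) and 12.21, 12.23 and 12.19 (double transgenic).

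The 20 cyclins, CDKs and CDK inhibitors did not share a direction. Of these, 5 were higher (25%, against 21.1% of all genes) and 1 lower (5%, against 5.31%), with a median of -0.08. With TTP 3 left out, 5 were called higher (25%, against 18.5%) and 5 lower (25%, against 19.9%), with a median of -0.12. Beside Cdk4, Ccne1 (cyclin E1) differed by 0.69 ± 0.16 and E2f3, an S-phase transcription factor, by 0.78 ± 0.21. In the Myc, Max and Mxd network 4 of 16 genes were higher (25%, against 21.1% of all genes) and none lower (median 0.28). In the fit without TTP 3, 3 were called higher (18.8%, against 18.5%) and 1 lower (6.25%, against 19.9%), with a median of 0.18. Ruvbl1 and Ruvbl2, paired ATPases that bind Myc, differed by 1.10 ± 0.31 and 1.20 ± 0.37, and Mnt, a repressor that competes for Max, by 0.34 ± 0.12. The BCL2 family had a median of 0.07 that was -0.06 without TTP 3. In that fit 1 of 15 was called higher (6.67%, against 18.5% of all genes) and 3 lower (20%, against 19.9%). Bcl2l11, which encodes the death-promoting BIM, was higher without overlap, at 9.72, 9.97 and 9.87 on the TTP arrays and 10.45, 10.30 and 10.29 on the double transgenic arrays. Bcl2l1, which encodes the survival factor BCL-XL, was lower without overlap, at 8.47, 8.41 and 7.62 in the TTP group against 7.14, 6.79 and 7.18 in the double transgenic group. Bcl2 (-1.74 ± 0.70) and Mcl1 (-0.66 ± 0.26) overlapped and did not pass the looser threshold, but both were called lower without TTP 3. Of 23 genes of the p53 pathway 2 were higher (8.7%, against 21.1% of all genes) and 1 lower (4.35%, against 5.31%), with a median of -0.09. With TTP 3 left out, 2 were called higher (8.7%, against 18.5%) and 5 lower (21.7%, against 19.9%), with a median of -0.33. Aen, a nuclease induced by p53, differed by 0.94 ± 0.27, and Gadd45a, a stress gene, by -0.89 ± 0.32.

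Some of the largest differences among genes that did not overlap were in genes for which TTP 3 stood far from its group. Ankrd13b, an ankyrin-repeat gene, read 4.03, 4.13 and 7.47 (TTP) and 7.96, 8.31 and 8.18 (double transgenic). Slc35f2, a solute carrier, read 5.15, 5.13 and 7.64 on the TTP arrays and 8.81, 8.52 and 8.32 on the double transgenic arrays. Bcat1, which transaminates branched-chain amino acids, read 7.96, 8.30 and 10.57 in the TTP group against 11.27, 11.18 and 11.16 in the double transgenic group. In all 3 genes TTP 3 lay above the other TTP arrays and below the double transgenic ones. The differences were 2.94 ± 0.93, 2.58 ± 0.88 and 2.26 ± 0.78 with all arrays, and 4.07 ± 0.73, 3.41 ± 0.83 and 3.07 ± 0.70 without TTP 3. Cth, which makes cysteine from cystathionine, read 2.96, 2.75 and 7.07 (TTP) and 7.39, 7.86 and 7.07 (double transgenic), and without TTP 3 it was at least 10.8-fold higher than the floor of log2 4. Car12, a carbonic anhydrase, was at least 9.56-fold higher by the same measure, and Pcsk4, a proprotein convertase, at least 14.8-fold. A difference against a group mean below that floor is given as such a lower bound here and below.

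Smaller but steadier differences came from Ubfd1, a ubiquitin-domain gene, Raly, an RNA-binding protein, and Fastkd5, which processes mitochondrial RNA. Ubfd1 read 10.15, 10.32 and 10.54 on the TTP arrays and 11.09, 10.95 and 11.04 on the double transgenic arrays. Raly read 11.31, 11.28 and 11.42 in the TTP group against 11.93, 11.80 and 11.84 in the double transgenic group. Fastkd5 read 9.84, 10.01 and 10.08 (TTP) and 10.79, 10.61 and 10.58 (double transgenic). Leaving out TTP 3 moved the differences from 0.69 ± 0.12, 0.51 ± 0.10 and 0.69 ± 0.12 to 0.79 ± 0.12, 0.56 ± 0.10 and 0.74 ± 0.14.

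**Figure D2:**
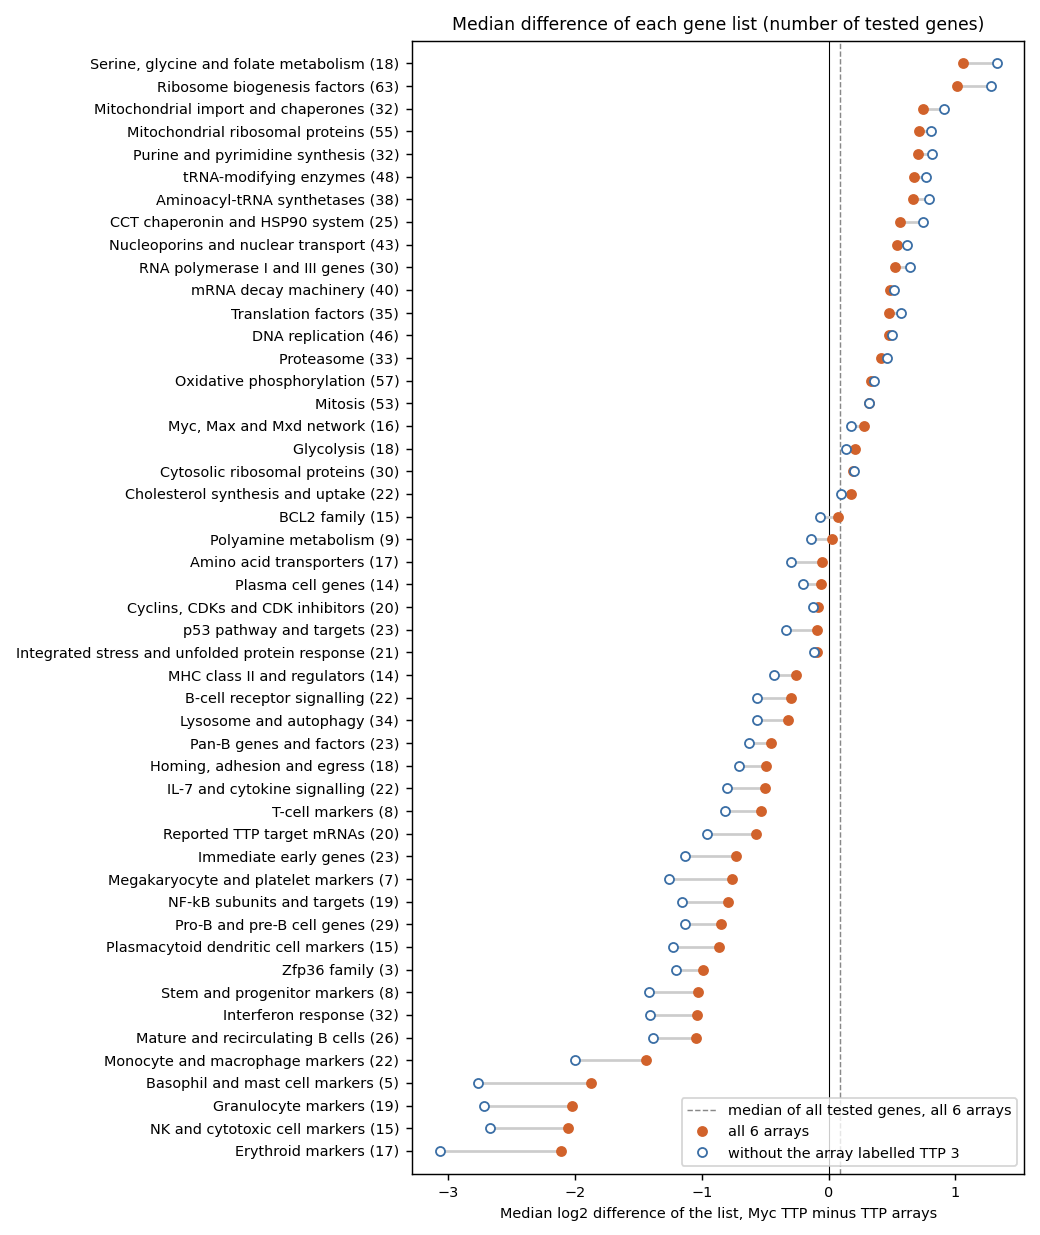
Median log2 difference, Myc TTP minus TTP arrays (horizontal axis), of each of 49 gene lists with the number of tested genes in brackets, for all 6 arrays (filled) and without the array labelled TTP 3 (open); the dashed line is the median of all tested genes, 0.09. Ribosome, mitochondrial and one-carbon lists lie to the right, B-cell, signalling and other blood cell lists to the left, and leaving out TTP 3 moved the lower lists furthest, the erythroid list from -2.11 to -3.07.

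Markers of other blood cells summed to less on the double transgenic arrays than on TTP 1 and 2 in most lists. The summed intensity of 19 granulocyte markers was 350900, 399410 and 192840 on the TTP arrays and 170180, 112070 and 113030 on the double transgenic arrays. That of 25 monocyte and macrophage markers was 66392, 83138 and 27312 against 30178, 16792 and 17916, and that of 18 erythroid markers 44948, 55332 and 19798 against 23382, 22046 and 15618. TTP 3 lay far below TTP 1 and 2 in each sum, and within the double transgenic range in the monocyte and erythroid sums. In bulk RNA fewer cells of a type and less RNA per cell cannot be told apart.

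Counted by gene, 1 of 19 granulocyte markers was lower at an adjusted p under 0.10 (median -2.02), 6 of 22 monocyte and macrophage markers (-1.44), 2 of 17 erythroid (-2.11), 5 of 15 natural killer and cytotoxic (-2.05, or -1.69 with genes below the floor set to it) and 3 of 15 plasmacytoid dendritic markers (-0.86). No gene of these 5 lists was higher. Without TTP 3 the called numbers were 2, 18, 6, 11 and 11, and the medians -2.71, -2.001, -3.07, -2.67 and -1.23. For granulocytes these counts were 5.26% with all arrays and 10.5% without TTP 3, no more than the 5.31% and 19.9% of all genes called lower, and 57.9% of the markers did not overlap, against 5.36% of all genes. Csf1r, the receptor for the macrophage growth factor, read 8.34, 9.05 and 8.37 on the TTP arrays and 6.14, 6.85 and 6.998 on the double transgenic arrays, and TTP 3 lay here with its group. Mmp9, a granulocyte protease, read 10.94, 11.03 and 8.49 in the TTP group against 8.71, 7.11 and 7.41 in the double transgenic group. Gata1, the erythroid transcription factor, read 8.66, 9.05 and 5.97 (TTP) and 5.87, 6.01 and 4.29 (double transgenic). Mmp9 and Gata1 overlapped only through TTP 3, and their adjusted p-values were 0.161 and 0.082 with it and 0.0598 and 0.0147 without it (limma).

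Further markers filled in these lists. Ms4a6c, expressed by monocytes, differed by -2.41 ± 0.73, and Padi4, a granulocyte histone deiminase, by -1.26 ± 0.44, both without overlap. Alas2, which starts erythroid haem synthesis, differed by -2.11 ± 0.93 with overlap. Ncr1, a natural killer receptor, differed by -2.05 ± 0.64, and Ctsw, a protease of cytotoxic cells, was at least 1.93-fold lower. Cd209d was at least 2.93-fold lower, and Klk1 differed by -3.33 ± 1.18, both taken here as plasmacytoid dendritic cell markers. The smaller lists were low throughout: the 14 T-cell markers summed to 2403, 2747 and 1313 on the TTP arrays and 1922, 1440 and 1269 on the double transgenic arrays, with Cd3e, Cd3g, Cd5, Bcl11b and Cd6 below the floor on all 6. Cd8a, which was not, read 6.02, 6.49 and 6.60 on the TTP arrays and 7.36, 7.15 and 7.56 on the double transgenic arrays and was higher without overlap. The 8 basophil and mast cell markers summed to 1563, 2150 and 310.2 against 438.0, 254.7 and 180.4, with Cpa3, a mast cell protease, at 7.996, 8.93 and 4.92 in the TTP group against 5.73, 4.996 and 3.48 in the double transgenic group. Also below the floor on all 6 arrays were Cd14, Vcan and Marco of the monocyte list, Hba-a1 of the erythroid list, Tlr9 of the plasmacytoid list, and Gzmm and Klrg1 of the natural killer list. The sums of 11 megakaryocyte and platelet markers (677.4, 1217 and 259.8 against 1071, 327.2 and 172.5) and of 11 stem and progenitor markers (4656, 5660 and 3582 against 4543, 4440 and 3933) overlapped between the groups, with Itga2b, Gp5, Gp6, Treml1 and Mecom below the floor on all 6 arrays.

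**Figure D3:**
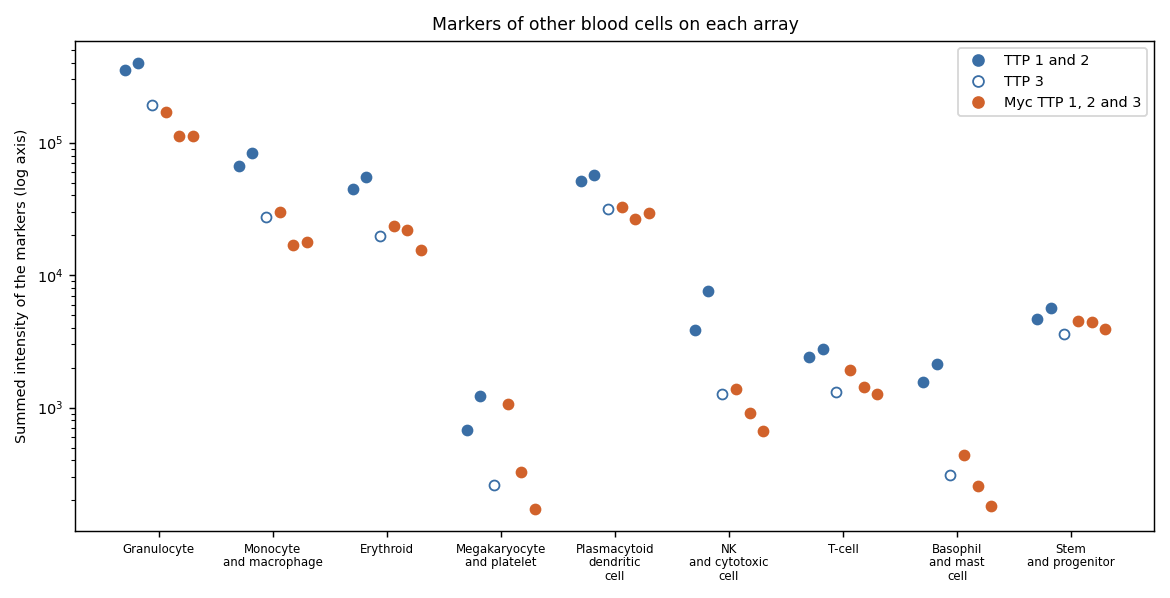
Summed intensity (vertical log axis) of the markers of 9 other blood cell types on the TTP arrays (blue, TTP 3 open) and the Myc TTP arrays (orange). TTP 1 and 2 were the highest arrays for 8 of the 9 types, and in the megakaryocyte and platelet list Myc TTP 1 read 1071, above the 677.4 of TTP 1.

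B-lineage genes were lower as well, and those of mature B cells most. In the list for mature and recirculating B cells 10 of 26 genes were lower at an adjusted p under 0.10 and 1 higher, with a median of -1.05, and without TTP 3, 22 were called lower and 1 higher with a median of -1.38. Fcer2a, the IgE receptor CD23 of follicular B cells, read 8.78, 10 and 7.20 (TTP) and 5.76, 5.33 and 5.21 (double transgenic). Its difference of -3.23 ± 0.74, or 9.37-fold lower, had an adjusted p of 0.0607 (limma). Cr2, the complement receptor CD21, read 7.96, 9.28 and 5.68 on the TTP arrays and 4.56, 3.08 and 4.14 on the double transgenic arrays, at least 12.5-fold lower with all arrays and at least 24.6-fold without TTP 3. Cd40, the receptor for T-cell help, read 8.23, 9.001 and 7.09 in the TTP group against 6.42, 6.30 and 6.06 in the double transgenic group. Bank1, a B-cell scaffold protein, read 10.51, 11.05 and 9.34 (TTP) and 8.45, 8.35 and 8.83 (double transgenic). None of the 4 genes overlapped, and TTP 3 was the lowest TTP array in each.

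Early and general B-lineage genes were lower by less. Of 29 pro-B and pre-B genes 4 were lower at an adjusted p under 0.10 (13.8%, against 5.31% of all genes) and none higher (median -0.85). In the fit without TTP 3, 13 were called lower (44.8%, against 19.9%) and 1 higher (3.45%, against 18.5%), with a median of -1.13. Rag1, which cuts antigen receptor genes for rearrangement, read 14.09, 14.11 and 12.87 on the TTP arrays and 12.40, 12.44 and 12.22 on the double transgenic arrays. Ebf1, a transcription factor that commits cells to the lineage, read 12.99, 12.81 and 12.14 in the TTP group against 11.72, 11.97 and 11.64 in the double transgenic group. Rgs2, a regulator of G-protein signalling, differed by -1.57 ± 0.45. These 3 genes did not overlap. Of 23 pan-B genes 4 were lower (17.4%, against 5.31%) and none higher (median -0.45). In the fit without TTP 3, 13 were called lower (56.5%, against 19.9%), with a median of -0.63. Ms4a1, which encodes CD20, read 13.97, 14.31 and 13.57 (TTP) and 12.92, 12.95 and 13.33 (double transgenic). Fcmr, the IgM Fc receptor, read 12.91, 13.57 and 11.37 on the TTP arrays and 10.48, 9.76 and 10.04 on the double transgenic arrays. The sums of granulocyte, monocyte and erythroid markers moved in the same direction as these lists, and their part in the result was not tested.

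With all arrays, few genes of antigen receptor signalling and antigen presentation passed the looser threshold. More of the receptor signalling genes were called lower without TTP 3. Of 22 receptor signalling genes 1 was lower at an adjusted p under 0.10 (4.55%, against 5.31% of all genes, median -0.29) and 9 were called lower without TTP 3 (40.9%, against 19.9%, median -0.57). Malt1, which links the receptor to NF-kB, differed by -0.61 ± 0.17, and Ptpn6, the phosphatase SHP-1, by -0.81 ± 0.32 with overlap (adjusted p 0.1), and by -1.24 ± 0.21 without TTP 3 (adjusted p 0.0129, limma). Of 14 genes of MHC class II and its regulators 2 were lower (14.3%, against 5.31% of all genes, median -0.26). With TTP 3 left out, 3 were called lower (21.4%, against 19.9%, median -0.43). Ctss, a protease that trims the invariant chain, read 12.47, 12.44 and 12.24 in the TTP group against 11.34, 11.50 and 11.71 in the double transgenic group, with TTP 3 close to its group. H2-Ob, which restrains peptide loading, differed by -1.19 ± 0.33 with an overlap of TTP 3 and double transgenic 3 at 11.93 and 11.95. Plasma cell genes split, with 3 higher and 3 lower of 14 (21.4% each, against 21.1% and 5.31% of all genes, median -0.06). With TTP 3 left out, 3 were called higher (21.4%, against 18.5%) and 5 lower (35.7%, against 19.9%, median -0.20). Jchain, which joins secreted antibodies, read 6.76, 8.50 and 7.64 (TTP) and 4.85, 5.34 and 5.25 (double transgenic). Fkbp11, a chaperone of the secretory pathway, read 3.56, 4.86 and 5.80 on the TTP arrays and 6.79, 6.61 and 6.48 on the double transgenic arrays. Prdm1, the master regulator of plasma cells, was at least 1.26-fold lower.

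**Figure D4:**
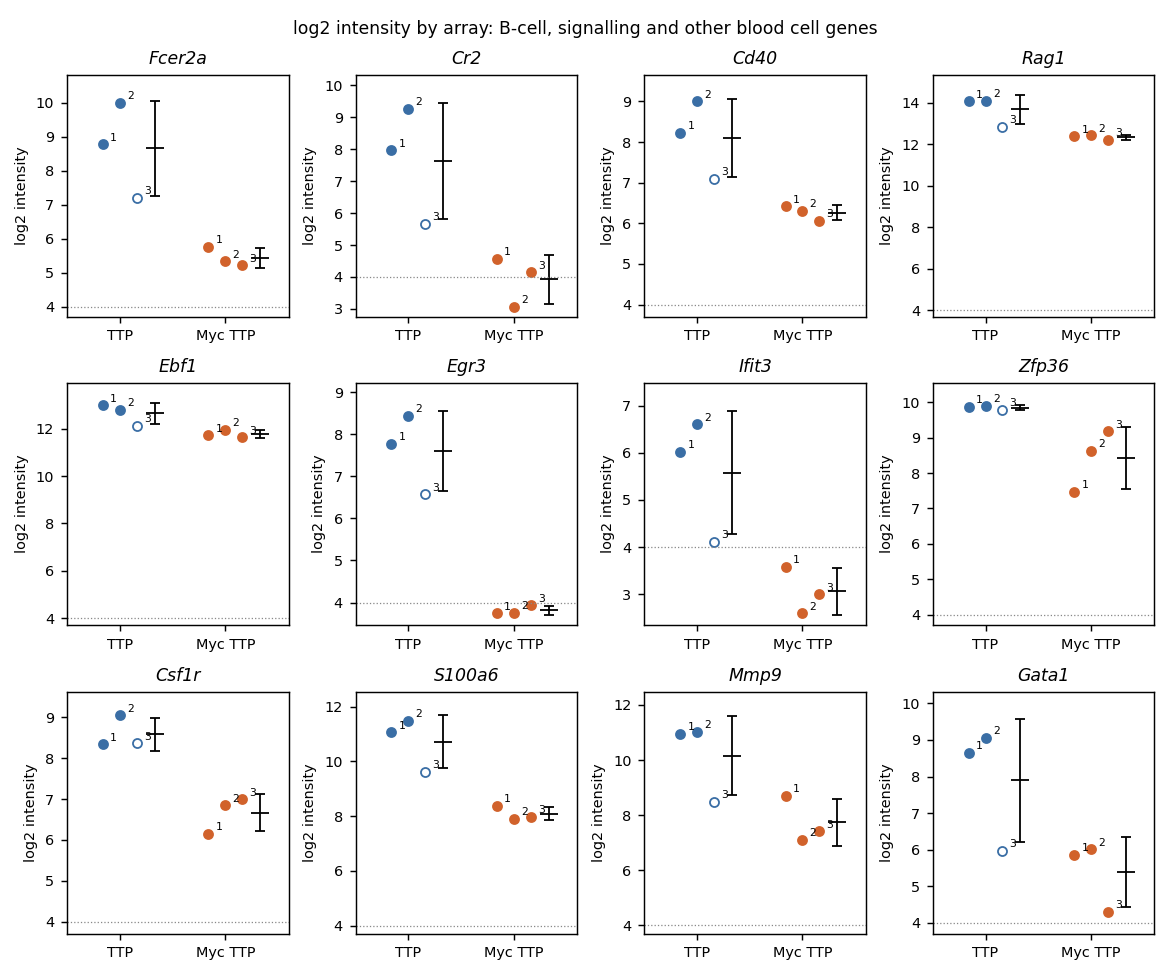
log2 intensity (vertical axis) of 12 genes on the 3 TTP arrays (blue, TTP 3 open) and the 3 Myc TTP arrays (orange), drawn as for the growth genes with group mean and SD (n = 3) and the floor of log2 4 dotted. TTP 3 was the lowest TTP array in 11 of the 12 genes, and read 8.37 in Csf1r, between TTP 1 and 2.

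Interferon-response genes were lower in the double transgenic arrays. Of 32 tested, 12 were lower at an adjusted p under 0.10 and none higher, with a median of -1.04 (-0.94 with genes below the floor set to it), and 23 were called lower without TTP 3 (-1.41). Ifit3, an antiviral protein that binds RNA, was at least 2.98-fold lower, its TTP values being 6.02, 6.61 and 4.11 and its double transgenic values all below the floor. Oasl2 was at least 3.81-fold lower. Mx1, an antiviral GTPase, read 7.78, 8.25 and 6.25 in the TTP group against 6.03, 5.30 and 2.89 in the double transgenic group. Usp18, which restrains the interferon receptor, read 6.65, 7.43 and 5.57 (TTP) and 4.47, 3.58 and 4.30 (double transgenic). Neither overlapped. The monocyte marker sum, 66392 and 83138 on TTP 1 and 2 against at most 30178 on the other 4 arrays, moved with these genes, and its part in the result was not tested.

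Immediate early genes, which are induced within minutes of a stimulus, and NF-kB genes were lower too. Of 23 immediate early genes 10 were lower at an adjusted p under 0.10 and none higher (median -0.73), with 17 called lower without TTP 3 (-1.13). Egr3, a zinc-finger factor induced by antigen receptor signals, read 7.78, 8.44 and 6.57 on the TTP arrays and 3.74, 3.76 and 3.94 on the double transgenic arrays, at least 12.1-fold lower. Egr1 read 10.02, 10.95 and 8.26 in the TTP group against 7.27, 6.98 and 7.04 in the double transgenic group. Jun, a subunit of AP-1, read 9.40, 9.26 and 7.55 (TTP) and 6.75, 6.97 and 6.07 (double transgenic). Btg1, which slows proliferation, read 14.01, 13.97 and 13.14 on the TTP arrays and 12.57, 12.39 and 12.37 on the double transgenic arrays. Of 19 NF-kB subunits and targets 5 were lower and 1 higher (median -0.80, or -0.37 with genes below the floor set to it), and 10 were called lower without TTP 3 (-1.15, or -0.67 with the floor). Nfkbie, an NF-kB inhibitor, differed by -1.91 ± 0.54, Nfkbiz, a nuclear co-regulator, by -2.26 ± 0.70, and Birc3, an anti-apoptotic target, by -1.23 ± 0.39, each without overlap. The marker sums given above moved with these lists, and their part was not tested.

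Cytokine signalling and homing genes were lower in part. At an adjusted p under 0.10, 4 of 22 genes of IL-7 and cytokine signalling were lower (18.2%, against 5.31% of all genes). There 1 was higher (4.55%, against 21.1%), and the median was -0.50. In the fit without TTP 3, 13 were called lower (59.1%, against 19.9%) and 1 higher (4.55%, against 18.5%), with a median of -0.80. The survival kinases Pim2 and Pim3 stood on opposite sides, both without overlap. Pim2 read 9.88, 10.08 and 8.85 in the TTP group against 8.82, 8.69 and 8.46 in the double transgenic group. Pim3 read 8.54, 9.15 and 9.55 (TTP) and 10.28, 10.16 and 10.17 (double transgenic). Of 18 homing, adhesion and egress genes 6 were lower and none higher (median -0.50), and without TTP 3, 11 were called lower (-0.71). Cxcr4, which retains B-cell precursors in the marrow, read 13.55, 13.43 and 12.71 on the TTP arrays and 12.54, 12.63 and 12.38 on the double transgenic arrays. Gpr183, an oxysterol receptor that positions mature B cells, was at least 6.97-fold lower, Cnr2, the cannabinoid receptor CB2, differed by -1.82 ± 0.53 and Itgam, an integrin of myeloid cells, by -2.82 ± 0.78. Of 34 lysosome and autophagy genes 5 were lower (14.7%, against 5.31% of all genes) and none higher (median -0.32). In the fit without TTP 3, 18 were called lower (52.9%, against 19.9%), with a median of -0.57. Atp6v0d1, a subunit of the lysosomal proton pump, read 11.88, 12.04 and 11.37 in the TTP group against 11.16, 11.02 and 11.002 in the double transgenic group. The 21 genes of the integrated stress and unfolded protein responses had 3 higher (14.3%, against 21.1% of all genes) and 2 lower (9.52%, against 5.31%, median -0.09). With TTP 3 left out, 4 were called higher (19%, against 18.5%) and 7 lower (33.3%, against 19.9%, median -0.12).

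TTP belongs to a family of mRNA decay factors, and all 3 members tested were lower in the double transgenic arrays at an adjusted p under 0.10. Zfp36 itself, whose values opened this account, differed by -1.43 ± 0.39 (adjusted p 0.0607, limma), with double transgenic 1 the lowest array. Zfp36l1, which with Zfp36l2 restrains the cell cycle during B-cell development, read 12.31, 12.61 and 11.57 (TTP) and 11.33, 11.28 and 11.14 (double transgenic). Zfp36l2 read 12.93, 13.27 and 12.62 on the TTP arrays and 11.12, 12.23 and 12.49 on the double transgenic arrays. Without TTP 3 the 3 differences were -1.46 ± 0.45, -1.21 ± 0.28 and -1.15 ± 0.36, and all 3 genes were called lower.

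The machinery that TTP recruits stood the other way. Of 40 mRNA decay genes 22 were higher at an adjusted p under 0.10 (55%, against 21.1% of all genes) and none lower. Their median was 0.49, or 0.44 with genes below the floor set to it. In the fit without TTP 3, 21 were called higher (52.5%, against 18.5%) and 1 lower (2.5%, against 19.9%), with a median of 0.52. Cnot9, a subunit of the deadenylase complex, read 10.89, 10.87 and 11.16 in the TTP group against 11.87, 11.60 and 11.64 in the double transgenic group. Exosc3, of the RNA exosome, read 9.82, 9.68 and 10.10 (TTP) and 10.66, 10.52 and 10.70 (double transgenic). Exosc10, its nuclear exonuclease, read 10.997, 11.02 and 11.06 on the TTP arrays and 11.82, 11.57 and 11.59 on the double transgenic arrays. Of 20 mRNAs reported as TTP targets 3 were higher (15%, against 21.1% of all genes) and 4 lower (20%, against 5.31%). Their median was -0.57, or -0.52 with genes below the floor set to it. In the fit without TTP 3, 3 were called higher (15%, against 18.5%) and 12 lower (60%, against 19.9%), with a median of -0.96. The higher ones included Pim3 and Bcl2l11, named above, and the lower ones Nfkbiz and Notch1. Notch1, a receptor of lymphocyte fate, read 10.09, 10.51 and 9.41 in the TTP group against 8.20, 9.03 and 9.13 in the double transgenic group. Tnf, the best-studied TTP target, read 3.43, 5.10 and 3.36 (TTP) and 2.70, 2.63 and 2.76 (double transgenic), so that most of its values lay below the floor. Some targets also stand in the NF-kB, immediate early and survival lists, and faster decay and less transcription cannot be told apart in mRNA levels.

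Several of the lower genes with the smallest p-values lay outside the lists. Sh3pxd2a, a scaffold of cell invasion structures, read 5.63, 6.35 and 5.97 on the TTP arrays and 4.14, 3.88 and 4.34 on the double transgenic arrays. Prxl2a, a peroxiredoxin-like protein whose promoter window is printed above, read 7.21, 6.83 and 7.09 in the TTP group against 5.40, 5.39 and 5.46 in the double transgenic group. Helz2, a helicase that coactivates nuclear receptors, read 9.34, 10.08 and 9.56 (TTP) and 8.43, 8.22 and 8.31 (double transgenic). In these 3 genes TTP 3 lay between TTP 1 and 2, so that the differences of -1.86 ± 0.30, -1.63 ± 0.30 and -1.34 ± 0.25 stayed at -1.87 ± 0.34, -1.61 ± 0.34 and -1.39 ± 0.29 without it. Zbtb4, a transcriptional repressor that binds methylated DNA, read 9.67, 10.11 and 8.62 on the TTP arrays and 7.27, 7.76 and 7.31 on the double transgenic arrays. S100a6, a calcium-binding protein, read 11.06, 11.48 and 9.62 in the TTP group against 8.37, 7.91 and 7.98 in the double transgenic group, 6.21-fold lower. Steap4, a metalloreductase, was at least 9.27-fold lower, Gas7, a cytoskeletal regulator, at least 18.4-fold and Slfn1, a schlafen-family gene of lymphocytes, at least 10.7-fold, each with TTP 3 between the other TTP arrays and the double transgenic ones.

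The same contrast in mice without the TTP transgene, Eµ-Myc over wild type, shares no array with this one. Over the 10287 genes the 2 sets of log2 differences correlated with a Pearson r of 0.878 and a Spearman rho of 0.841, and 72.3% of genes had the same sign. Genes are not independent replicates, both comparisons share the platform and the normalization, and the array labelled wild type 3 read 12.65 for Myc, as TTP 3 did in its group. Myc 3 stood apart too: on the first principal component the wild-type arrays lay at -53.4, -64.0 and -7.65 and the Myc arrays at 76.2, 66.1 and 5.35. Wild type 3 held Xist of 8.14 with Eif2s3y of 11.29. Myc 1 read 1.86 for Xist and 9.72 for Eif2s3y, and Myc 3 read 13.68 and 5.05. Wild type 1 and 2 and Myc 2 held Xist of 13.55 or higher with Eif2s3y of 3.05 or lower. What these sex-linked signals meant for the comparison was not tested. Without the 4 arrays numbered 3 the r was 0.893, the rho 0.889 and the share of the same sign 80.5%. At an adjusted p of 0.05 with all arrays (limma), 48 genes were called higher in Myc over wild type (0.467% of those tested). Of these, 43 had the same sign with TTP and 29 did not overlap, with medians of 1.30 without TTP and 0.69 with it. Of 1087 called lower (10.6%), 998 had the same sign and 217 did not overlap, with medians of -1.23 and -0.56. These genes were chosen on Myc over wild type, so the medians are given side by side with no test. Their total, 1135, fell to 0 after quantile normalization, at a common median, without an intensity trend, unmoderated and with the replicate block. It was 5626 without the 4 arrays numbered 3. With single arrays left out it ran from 0 (without wild type 1, Myc 1 or any double transgenic array, among others) to 3609 (without TTP 3).

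The difference between the Myc differences with and without TTP, an interaction in the same fit, passed in none of the 10287 genes (0% called, smallest adjusted p 0.358, limma), and 1351 had an unadjusted p under 0.05 (13.1%). Leaving out the 4 arrays numbered 3, it passed in 235 genes (2.28%). The median interaction with all arrays was 0.34, but 0.04 after quantile normalization and 0.01 at a common median. Genes with an unadjusted p under 0.05 for it fell from 1351 to 339 and 358 after the same scalings (limma). List medians stood side by side as follows. Ribosome biogenesis factors had 1.01 with TTP and 0.79 without it, mitochondrial ribosomal proteins 0.71 and 0.38, mature B-cell genes -1.05 and -1.10, interferon genes -1.04 and -1.54, and granulocyte markers -2.02 and -4.44. Without the 4 arrays numbered 3 these pairs were 1.32 and 1.37, 0.84 and 0.73, -1.34 and -1.43, -1.41 and -2.10, and -2.41 and -6.43, so that the ribosome biogenesis pair turned its order. The mean level of the granulocyte markers was 5.83, 7.14 and 11.07 on Myc 1, 2 and 3. S100a6 stood at -2.64 ± 0.53 with TTP and at 0.10 ± 0.53 without it, a difference with an unadjusted p of 0.00372 and an adjusted p of 0.358 (limma). Csf1r stood at -1.92 ± 0.38 and -0.26 ± 0.38, Raly at 0.51 ± 0.10 and -0.13 ± 0.10, and Mrpl49 at 0.58 ± 0.11 and -0.14 ± 0.11. None of these passed the adjusted test of the interaction. They were named for their differences between double transgenic and TTP arrays, a part of the interaction, so the choice can widen these gaps.

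**Figure D5:**
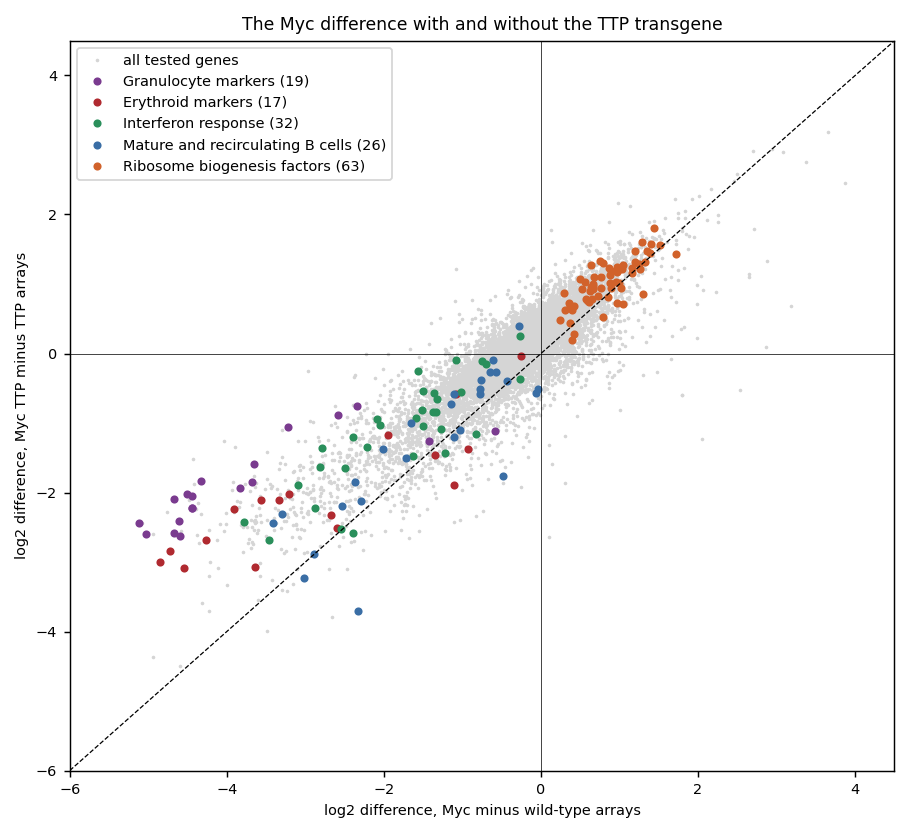
Each point is 1 of 10287 genes, with its log2 difference in Eµ-Myc over wild-type arrays (horizontal) against that in Myc TTP over TTP arrays (vertical); 5 lists are coloured and the dashed line marks equal differences. Most granulocyte markers lie above the line, with medians of -4.44 and -2.02, and ribosome biogenesis factors lie to the upper right, with medians of 0.79 and 1.01.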

How the data were processed

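The deposited values are intensity summaries of each probe set made by the authors with GCRMA, per the submitters' processing notes (version not given). They are linear and lie between 1.73 and 120125. GCRMA normalizes between arrays, so a shift in total RNA per cell cannot be seen, and precision is limited by how many arrays there are. The log2 of the deposited intensity was taken with no pseudocount. Of 45101 probe sets 34958 had 1 gene symbol in the platform annotation, 932 had several and 9211 none; symbols were updated through a RefSeq table of GRCm38.p6, in which 34754 were found. Each gene kept its probe set of highest mean over the 12 arrays. limma 3.58.1 in R 4.3.3 (lmFit, eBayes with an intensity trend) was fitted to 12 arrays with 4 group means, two-sided, with Benjamini-Hochberg adjustment over 10287 genes, after the script was tested on simulated data. Errors beside differences are standard errors. The members, the gene lists and the looser threshold were chosen with earlier results of these data known. Named genes are a part of those given by a written rule: in each direction the 12 smallest p and the 12 largest differences among non-overlapping genes with an adjusted p under 0.10, up to 5 members of smallest p from each list, and Myc and the Zfp36 family, leaving aside sex-linked genes and those of antigen receptors. Sex-linked genes served only to describe arrays. Alternatives were the filter, a pseudocount, the probe set, scaling between arrays, the moderation, a replicate block and leaving out arrays. Promoters were searched for CACGTG in the RefSeq promoter table, and no protein sequence was used here.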

Additional observations from a re-analysis of the deposited data

How the results depend on the processing

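The count of genes called at an adjusted p under 0.05, 0 with all arrays, was 1 without an intensity trend, 5 unmoderated, 4412 with TTP 3 and wild type 3 left out, and 4682 with the 4 arrays numbered 3 left out, and ranged from 0 to 3951 when each array was left out in turn (1907 without wild type 3, 3951 without TTP 3, 7 without Myc 3, and 0 for the other 9). The count under 0.10, 2713, was 1747 unmoderated, 5504 and 5585 without those 2 and those 4 arrays, and ranged from 0 to 5194, being 0 without TTP 1, TTP 2 or any double transgenic array. Genes that did not overlap, 3698, were 5561 with no filter on low values, 6881 and 7587 without those 2 and 4 arrays, and 4094 (without TTP 1) to 6881 (without TTP 3) with a TTP or double transgenic array left out. Chosen after seeing the data, leaving out TTP 3 with quantile normalization or a common median gave 4774 and 4488 called, 5953 and 5585 under 0.10, and 7424 and 7169 without overlap; leaving out the 4 arrays numbered 3 in the same way gave 5372 and 5083, 6275 and 5926, and 8006 and 7829. Genes called for the interaction, 0 in the main fit and 0 with each array left out, were 235 without the 4 arrays numbered 3, and 60 and 73 with the 2 scalings added. No other alternative moved these 4 counts by over 1.5 times. With the replicate block 0 genes were called and 1980 passed 0.10; the residuals of same-numbered arrays correlated at 0.367, -0.058 and 0.497, so the numbers are not taken to pair the samples. Of the differences of 138 named genes 3 reversed, all with the probe set of largest SD: Paics to -0.26, Dnaja1 to -0.50 and Nup62 to -0.0428, none of which is described above. Of 931 list medians recomputed, 57 moved by over the spread between replicates and the others did not. The causes of these shifts were not tested. The number of arrays limits precision, and genes with a group mean below the floor have only bounds.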

Other observations

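Without the 4 arrays numbered 3, 235 genes passed the test of the interaction (2.28% of those tested, limma), 226 of them above 0, that is, less lower or more higher with Myc when TTP was present. These included 9 of 17 erythroid markers, 15 of 19 granulocyte markers and 11 of 29 pro-B and pre-B genes. Klf1, an erythroid transcription factor, read 10.51 and 10.35 on wild type 1 and 2, 3.22 and 3.09 on Myc 1 and 2, 10.84 and 11.54 on TTP 1 and 2, and 8.91 and 8.93 on double transgenic 1 and 2. Car2, a carbonic anhydrase of red cells, read 12.93 and 12.80, 7.86 and 7.63, 13.44 and 13.66, and 11.51 and 11.53 in the same order. Vpreb1, a part of the pre-B receptor's surrogate light chain, read 13.23 and 13.07, 8.37 and 8.30, 13.29 and 13.66, and 11.64 and 11.33. Among these 8 arrays the Myc arrays were the lowest in the 3 genes, with the double transgenic arrays next. The arrays left out ran the other way: Klf1 read 9.16 on Myc 3 and 4.46 on double transgenic 3, Car2 12.37 and 9.85, and Vpreb1 11.73 and 10.84. Chst7, a sulfotransferase, stood the other way, at 7.25 and 7.19 on Myc 1 and 2 against 3.81 and 4.21 on double transgenic 1 and 2. With all arrays the interaction was 1.88 ± 2.34 in Klf1, 1.19 ± 1.53 in Car2, 1.74 ± 1.18 in Vpreb1 and -2.51 ± 1.16 in Chst7, and none passed. These genes were picked for this pattern after their values were seen.

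Among the double transgenic arrays, the first had the highest value in 93 of 116 tested markers of other blood cells, and in 7010 of all 10287 genes, and the third had the lowest in 74 of the 116 and 5715 of all. Lysosome and autophagy promoters held the E-box CACGTG in 38.5% of 26 genes, against 12.3% of the 8440 tested genes with a promoter, although the list had a median difference of -0.32. Without TTP 3 the median spread (SD) of a gene among the TTP arrays was 0.14, against 0.30 with it and 0.19 among the double transgenic arrays.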
